A study of Mus musculus with 2 samples.

Results

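Endothelial cells line the vessels of a tumor, and this account describes those recovered from an orthotopic mouse glioblastoma under vehicle or Xevinapant. A barcode was counted as endothelial when at least 3 of 5 endothelial transcripts (Cldn5, Pecam1, Cdh5, Flt1 and Tie1) had a UMI, a unique molecular identifier that counts 1 captured molecule. Barcodes with more than 3 UMIs over C1qa, C1qb and C1qc, genes of microglia and macrophages, or more than 3 over Olig1 and Olig2, genes of the tumor cells, were left out. The rule kept 249 of the 54574 barcodes that passed the quality filter, 103 from vehicle and 146 from Xevinapant. Both groups carried tumors of the same Trp53+/- and Nf1+/- mouse glioblastoma stem cell line (mGSC), a single line injected into the right striatum of female C57BL/6 mice bought at 6 to 8 weeks of age. The mice received vehicle or Xevinapant at 50 mg/kg per day by oral gavage for 7 days. Xevinapant is a SMAC mimetic, a compound that blocks inhibitor of apoptosis proteins such as cIAP1, cIAP2 and XIAP. Whether any of these barcodes descended from the injected line was not tested.

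Endothelium of the healthy brain forms the blood-brain barrier, sealed by claudin-5 junctions, poor in vesicles and rich in nutrient transporters and efflux pumps under Wnt and Norrin signals. In glioblastoma, VEGF-A draws new vessels led by tip cells, which express Apln, Esm1 and Angpt2, and the vessels become leaky, with Plvap, the diaphragm protein of fenestrae, as a known sign. Barcodes along a vessel can be ordered from arterial (Dll4, Efnb2, Gja4) over capillary (Mfsd2a) to venous (Selp, Ackr1, Nr2f2) identity.

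Each group came as 4 matrices of fixed cells, read with gene probes. Those deposited under the Xevinapant sample also carry the word Vehicle in their names. They were taken as Xevinapant from the sample they belong to, and the direction of every group difference rests on that record. Matrices 1 and 3 of vehicle, 1 and 2 of Xevinapant, and 3 and 4 of Xevinapant were nearly alike. Over all barcodes, their log2 CPM differed by a root mean square of 0.119 to 0.184, against 0.338 to 0.490 in the 9 other pairs within a group. The design gives 4 tumors per group, but no label ties a matrix to a mouse. Each alike pair was therefore counted as 1 sample, which left 3 vehicle and 2 Xevinapant samples. P-values of tests on these samples, other than the comparison with tumor barcodes, measure the spread between them. Pairs across the groups differed by 0.286 to 0.707, so the 2 ranges overlap. Matrices 3 and 4 of Xevinapant differed from the vehicle matrices by 0.286 to 0.418. That was less than their 0.465 to 0.490 from matrices 1 and 2 of Xevinapant. Vehicle and Xevinapant were prepared as separate pools under different batch dates, and the labels name total RNA for vehicle and polyA RNA for Xevinapant. Treatment, pool and date therefore cannot be told apart. Whole barcodes recurred between groups, 1413 in all and only between matrices of the same probe barcode. Of the endothelial barcodes, 2 of vehicle and 3 of Xevinapant were among them, with 609 to 1887 UMIs each and 0.344% of all endothelial UMIs. In 4 of the 5, the other group's copy held 105205 to 277790 UMIs. With the 5 left out, the treatment comparison below still called 0 genes, and the comparison with tumor barcodes called 38 in place of 41.

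The 5 transcripts of the rule come first. Of the 249, 113 had all 5 transcripts, 85 had 4 and 51 had 3. Mean levels over the 5 samples were 517 CPM for Cldn5, 2388 CPM for Pecam1, 1769 CPM for Cdh5, 1478 CPM for Flt1 and 652 CPM for Tie1, against 0.111 to 2.69 CPM in tumor barcodes. CPM is a gene's UMIs scaled to 1e+06 UMIs of the summed barcodes. These levels follow from the rule and test nothing. The 51 barcodes just inside the rule held 7771 CPM over 27 other pan-endothelial genes, and the 80 barcodes just outside it, with 2 transcripts, held 1463 CPM. Tumor barcodes held 148 CPM over the same genes. Tumor genes stood at 3135 CPM just inside the rule, 2748 CPM just outside it and 11468 CPM in tumor barcodes. Over all 249 barcodes, all 27 genes stood more than 10 times above the other barcodes, with a median of 194 times. A median of 19 of the 27 was detected per barcode, and 224 of the 249 barcodes had 10 or more.

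The endothelial barcodes were shallow and held RNA of other cells. Their UMIs ran from 500 to 60000 with a median of 3725. Median UMIs of all other barcodes ran from 7721 to 13443 by matrix, and those of tumor barcodes from 14978 to 23524. Tumor barcodes were those with more than 3 UMIs over Olig1 and Olig2, outside the endothelial and C1q limits. That limit favors deep barcodes, so part of the gap to them follows from the rules. The summed counts were 252450, 194671 and 215498 UMIs in vehicle 1 and 3, vehicle 2 and vehicle 4, and 482294 and 566779 in Xevinapant 1 and 2 and Xevinapant 3 and 4. The 5 deepest barcodes of a sample held 20.3 to 48.0% of its sum. Tumor genes other than Olig1 and Olig2 stood at 11.6, 16.2 and 14.3% of their level in tumor barcodes in the vehicle samples and at 5.48 and 12.6% in Xevinapant. The group means of 14.0% ± 2.31 (SD, n = 3) and 9.06% ± 5.07 (SD, n = 2) overlapped, and an exact two-sided permutation test gave p = 0.3. Fibroblast genes summed to 8120, 3390 and 44079 CPM in vehicle and to 5215 and 10124 CPM in Xevinapant, with vehicle 4 far above the rest. At least 3 of 5 fibroblast markers were found in 32 endothelial barcodes, and these carried 9.61 to 53.3% of a sample's UMIs. Pericyte and mural genes summed to 3462 to 6834 CPM, and at least 3 of their markers were found in 38 endothelial barcodes with 20.2 to 49.3% of a sample's UMIs. Microglia and macrophage genes stayed at 61.6 to 207 CPM, and of 12 lymphocyte genes 6 had no UMI. Erythrocyte genes ran from 15.4 CPM in vehicle 2 to 4863 CPM in vehicle 4. The mitochondrial share of endothelial UMIs was 1.25% ± 0.451 (SD, n = 3) in vehicle and 0.677% ± 0.133 (SD, n = 2) in Xevinapant (exact permutation p = 0.2), without overlap. In tumor barcodes it was 1.10% ± 0.0781 (SD, n = 3) against 0.842% ± 0.123 (SD, n = 2), also without overlap (exact permutation p = 0.1, the smallest possible). The part of RNA quality in the group differences below was not tested.

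**Figure D1:**
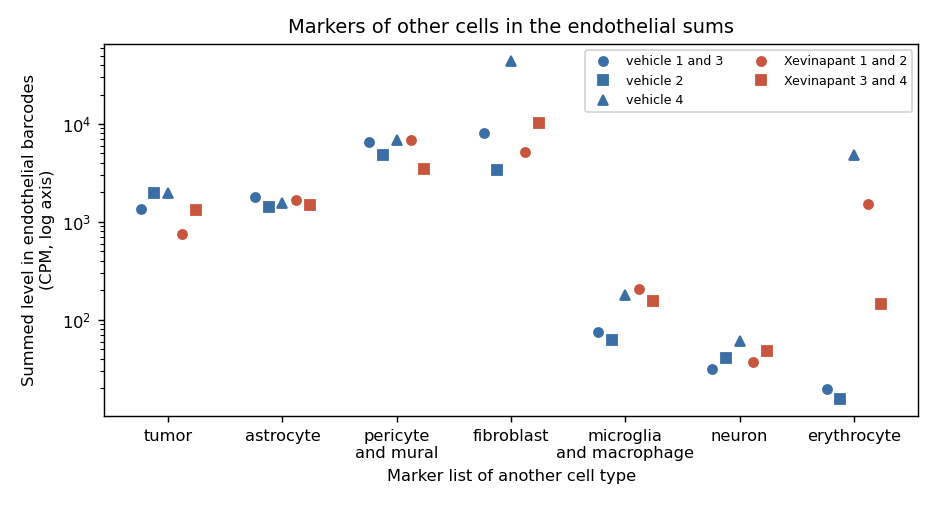
Summed CPM (log axis) of marker lists of other cell types in the endothelial sums, with 1 point per sample, vehicle in blue and Xevinapant in red. Fibroblast genes reached 44079 CPM in vehicle 4 and 3390 to 10124 CPM in the other 4 samples.

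Endothelial barcodes had a higher mean share in the Xevinapant libraries, and whether the difference passed depended on how the matrices were counted. By matrix, the share was 0.484, 0.406, 0.211 and 0.300% in vehicle and 0.770, 0.629, 0.532 and 0.574% in Xevinapant. No vehicle matrix reached the lowest Xevinapant matrix. Over the joined samples the share was 0.352% ± 0.0531 (SD, n = 3) in vehicle and 0.626% ± 0.103 (SD, n = 2) in Xevinapant, a ratio of 1.78. The exact two-sided permutation test gave p = 0.1, the smallest that 3 against 2 samples allow. Counting each of the 8 matrices as 1 mouse, as the design's 4 tumors per group would have it, gave p = 0.0286 (exact permutation test), the smallest for 4 against 4. The limit on Olig1 and Olig2 took out 83 barcodes of vehicle and 44 of Xevinapant that had the endothelial transcripts. Without that limit, the shares were 0.619% ± 0.0944 (SD, n = 3) and 0.797% ± 0.0374 (SD, n = 2), a ratio of 1.29 (exact permutation p = 0.2). With no Olig1 or Olig2 UMI allowed, they were 0.165% ± 0.0408 (SD, n = 3) and 0.450% ± 0.114 (SD, n = 2), a ratio of 2.73 (exact permutation p = 0.1). A share of all barcodes also moves with the number of tumor barcodes in the total. Tumor barcodes were 2700 of 4335, 4725 of 7135, 2900 of 4744 and 10305 of 14310 in the vehicle matrices. In the Xevinapant matrices they were 1992 of 4418, 1977 of 4450, 4167 of 7521 and 4114 of 7661. Their part in the difference was not tested. Shares count barcodes recovered from the dissociated tumor and not vessels in tissue.

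**Figure D2:**
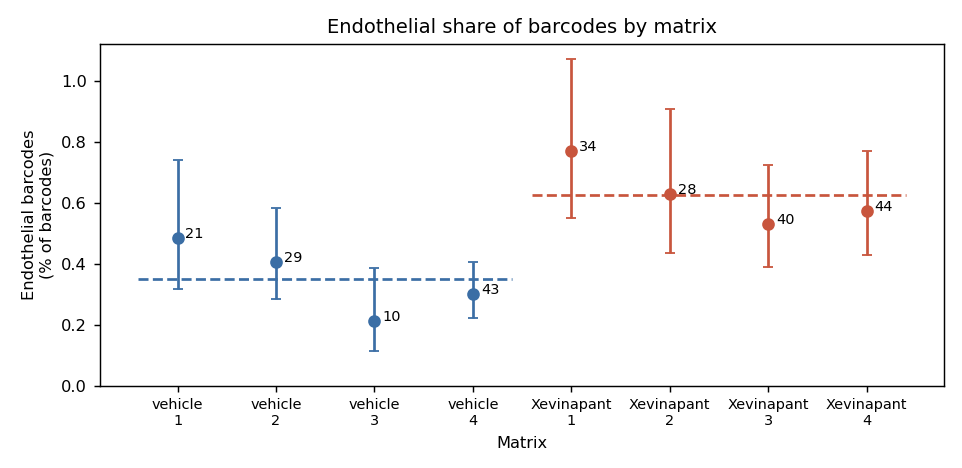
Endothelial barcodes as a percent of all barcodes that passed the quality filter, by matrix, with 95% Wilson intervals that cover counting error only, the number of endothelial barcodes beside each point and the group mean of the joined samples as a dashed line. The 4 vehicle matrices lie between 0.211 and 0.484% and the 4 Xevinapant matrices between 0.532 and 0.770%.

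Genes that set these barcodes apart were mostly transcripts the rule did not name. Of the 20 with the highest ratio to all other barcodes, at 100 CPM or more, 3 were rule transcripts (Cldn5, Cdh5 and Tie1) and 6 others belonged to the 27 pan-endothelial genes. Since the barcodes were chosen by transcripts that go with these, the ratios are a description. They ran from 322 to 470 times, and the lowest ratio in any sample was 158. Tmem252 led with 125 CPM ± 45.1 (SD, n = 5), followed by Btnl9 at 223 CPM and Ushbp1 at 217 CPM. Aplnr, the apelin receptor, stood at 675 CPM ± 288 (SD, n = 5) and ran from 236 CPM in its lowest to 912 CPM in its highest sample. Robo4, a stabilizing guidance receptor, stood at 546 CPM ± 108 (SD, n = 5). The sialomucin Emcn stood at 1110 CPM ± 279 and the adhesion receptor Adgrl4 at 1163 CPM ± 298 (SD, n = 5 each). Gpihbp1, which carries lipoprotein lipase across capillary endothelium, stood at 936 CPM ± 323 (SD, n = 5). Sox17, an arterial transcription factor, Tek, the angiopoietin receptor, and Flt4, VEGF receptor 3, were also in the set.

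Promoters of these genes are shown because ETS factors such as Erg, Fli1 and Ets1, all 3 of which were detected here, are known to bind endothelial promoters. Windows from 250 bases before to 50 after the start were taken from RefSeq for GRCm38.p6, which matched 13 of the 20 genes (not Aplnr, Sox17, Cdh5, Gpihbp1, Pcdh12, Ccm2l and Mogat2). The letters AGGAAG on either strand, the core of an ETS site, occurred in 9 of these 13 windows (69.2%) and in 33.4% of 18354 windows of all measured genes. The letters AACAGGAA on either strand, a combined forkhead and ETS motif, occurred in 2 of the 13 (15.4%) and in 2.39% of all windows. Both motifs can overlap, as in Emcn. The matches are a description of letters and not of bound sites. In the windows below, capitals mark either motif on either strand. AGGAAG, counted over both strands, occurred 2 times in Tie1, 2 times in Emcn, 1 time in Robo4 and 0 times in Cldn5.
Tie1, chr4:118489800-118490099, minus strand: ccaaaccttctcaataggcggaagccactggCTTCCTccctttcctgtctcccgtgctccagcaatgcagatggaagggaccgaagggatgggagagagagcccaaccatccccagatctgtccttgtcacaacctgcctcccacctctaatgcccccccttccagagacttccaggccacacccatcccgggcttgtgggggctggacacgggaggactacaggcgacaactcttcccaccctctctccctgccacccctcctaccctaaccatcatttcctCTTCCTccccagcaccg
Robo4, chr9:37401722-37402021, plus strand: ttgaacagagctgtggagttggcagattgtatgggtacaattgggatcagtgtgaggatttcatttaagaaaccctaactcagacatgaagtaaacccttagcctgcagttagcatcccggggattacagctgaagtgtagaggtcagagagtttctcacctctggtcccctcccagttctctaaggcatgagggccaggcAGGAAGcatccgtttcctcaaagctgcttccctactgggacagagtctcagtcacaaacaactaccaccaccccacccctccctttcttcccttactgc
Emcn, chr3:137340828-137341127, plus strand: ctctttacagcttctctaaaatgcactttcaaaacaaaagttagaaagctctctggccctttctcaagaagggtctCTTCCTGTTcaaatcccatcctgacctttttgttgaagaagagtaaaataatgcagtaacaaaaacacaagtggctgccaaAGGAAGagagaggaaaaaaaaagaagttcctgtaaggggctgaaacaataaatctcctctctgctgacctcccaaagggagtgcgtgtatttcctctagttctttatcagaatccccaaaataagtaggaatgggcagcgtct
Cldn5, chr16:18776597-18776896, plus strand: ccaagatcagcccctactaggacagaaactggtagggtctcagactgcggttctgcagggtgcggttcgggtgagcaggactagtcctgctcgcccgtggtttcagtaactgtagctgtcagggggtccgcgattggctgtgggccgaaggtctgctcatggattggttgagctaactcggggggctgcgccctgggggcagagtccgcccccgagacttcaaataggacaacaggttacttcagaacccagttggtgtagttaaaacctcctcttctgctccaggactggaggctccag

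The state of the vessels was read from shares of barcodes with a UMI after each was thinned to 2000 UMIs, which 191 of the 249 endothelial barcodes reached. They are set beside 2000 tumor barcodes thinned alike, whose share shows free RNA for a gene that tumor cells lack. Genes of vessel growth and leak were found in many of the barcodes. Plvap was found in 143 of 191 endothelial barcodes (74.9%) and 2.10% of tumor barcodes, and in 59.3 to 82.6% by sample. The tip cell genes Apln, Esm1 and Angpt2 were found in 67.5, 56.5 and 40.3%, against 5.50, 0.250 and 0.450% of tumor barcodes. Kcne3, a further tip cell gene, was found in 45.5% and in no tumor barcode. Cav1, the coat protein of caveolae, was found in 67.0%, and Aqp1, a water channel of leaky vessels, in 22.5%. Unthinned shares were not used for this, since the endothelial barcodes were the shallower ones. Thinned shares, here and below, pool both groups. The 191 were 23, 25 and 27 barcodes of the vehicle samples and 48 and 68 of the Xevinapant samples.

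Transporters of the blood-brain barrier were mixed in their detection. The glucose transporter Slc2a1 was found in 41.9% of endothelial and 18.9% of tumor barcodes, and the insulin receptor Insr in 53.9 and 16.5%. Abcb1a, the efflux pump P-glycoprotein, was found in 14 of 191 (7.33%) and in no tumor barcode, and all 14 came from 3 of the 5 samples. Abcg2, the other main efflux pump, was found in 14.1 and 8.50%. By sample, its share of endothelial barcodes was 43.5, 24 and 11.1% in vehicle and 4.17 and 8.82% in Xevinapant. The lipid transporter Mfsd2a was found in 2 of 191 (1.05%). Slco1a4, Slco1c1, Slc22a8 and Slc19a3 had no UMI in any of the 249. At 2000 UMIs, 0 of 191 allows up to 1.57% of barcodes with a UMI (3 counts of the total), which sets no limit on cells that express the gene. The transferrin receptor Tfrc was found in 3.14% of endothelial and 11.7% of tumor barcodes. Bsg, basigin, was found in 33.5%, with an interval of 27.2 to 40.5% that covers counting error only. Its share was 26.1 to 40% by sample, and 37.15% in tumor barcodes. Slco1a4 had 7 UMIs and Slc22a8 13 in all 54574 barcodes, so how well their probes work cannot be read from these files. No normal brain endothelium was part of the design.

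Junction genes differed widely in their detection. Cldn5, which the rule used, was found in 54.5% of the thinned endothelial and 0.05% of tumor barcodes. Esam was found in 86.4% and F11r in 68.6% of the endothelial barcodes, against 0.850 and 0.400% of tumor barcodes. Tjp1, a scaffold of tight junctions, was found in 49.2 and 22.4%. The junctional adhesion molecules Jam2 and Jam3 were found in 14.1 and 13.6%, below the 29.2 and 31.9% of tumor barcodes, and Cldn12 in 4.71 against 17.2%. Ocln, occludin, and Cgn, cingulin, had no UMI in the 249, and Ocln had 24 in all barcodes. Of the Wnt and Norrin receptors, Fzd4 was found in 52.4% and Adgra2 (Gpr124) in 15.7%. The Wnt target Axin2 was found in 7.33% of endothelial and 11.6% of tumor barcodes, and Lef1 in 4.71 and 0.750%.

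VEGF receptors and ligands differed in their detection. Kdr, VEGF receptor 2, was found in 70.7%, Flt4 in 57.6% and Nrp1 in 51.3% of thinned endothelial barcodes. Vegfa, the main ligand of Kdr, was found in 9.95%, below the 34.4% of tumor barcodes. Vegfc, a ligand of Flt4, was found in 14.7% and in no tumor barcode. Tek, the receptor of angiopoietins, was found in 34.0%, and Pdgfb, which recruits pericytes, in 55.5%. Col4a1, of the basement membrane, and Igfbp7, a matrix protein of tumor vessels, were each found in 97.9% of the barcodes, against 24.7 and 1.10% of tumor barcodes. Levels per sample ran from 9550 to 14023 normalized CPM for Col4a1 and from 14228 to 18137 normalized CPM for Sparc. Normalized CPM, used for the treatment comparison, is scaled by TMM factors over the genes tested. Igfbp3, which binds insulin-like growth factors, ranged from 2777 normalized CPM in vehicle 4 to 13772 in Xevinapant 3 and 4. Igf2, at 11.4% ± 4.30 (SD, n = 3) and 11.8% ± 3.05 (SD, n = 2) of its level in tumor barcodes, stood near the tumor gene level above.

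**Figure D3:**
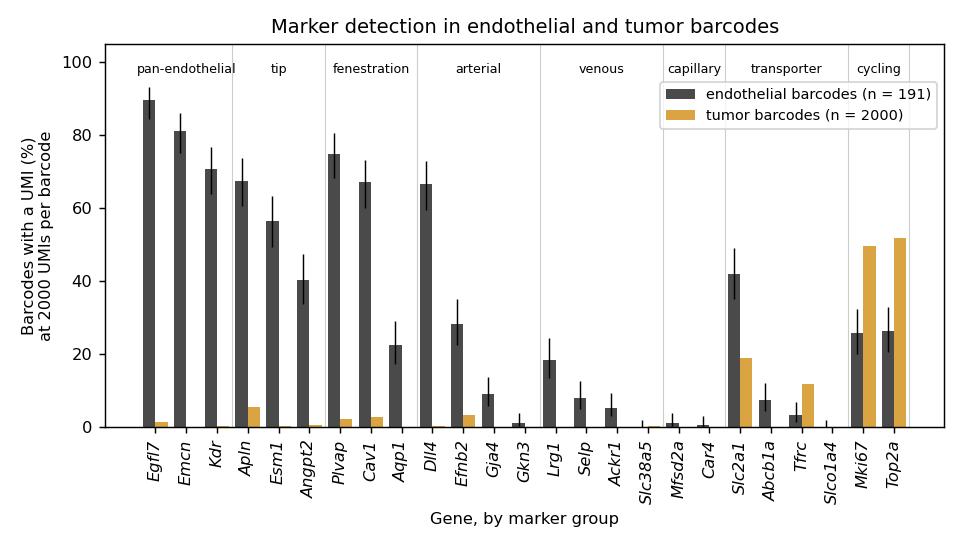
Percent of endothelial (grey, n = 191) and tumor (yellow, n = 2000) barcodes with a UMI of each gene after thinning to 2000 UMIs, by marker group; bars on the grey columns are 95% Wilson intervals for counting error. Plvap and Dll4 reach 74.9 and 66.5% of endothelial barcodes, while Mfsd2a, Car4, Gkn3, Slc38a5 and Slco1a4 lie between 0 and 1.05%.

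Genes of arterial and venous identity ranged from most of the barcodes to very few. Dll4, an arterial and tip cell ligand of Notch, was found in 66.5%, Tm4sf1 in 60.7%, Sox17 in 44.5%, Efnb2 in 28.3%, Gja4 in 8.90% and Gkn3 in 1.05% of the thinned barcodes. Among venous genes, Tmsb10 was found in 75.9% (51.7% of tumor barcodes), Vwf in 46.6% and Ephb4 in 40.3%. Nr2f2 was found in 19.9% (7.80% of tumor barcodes), Lrg1 in 18.3%, Selp in 7.85% and Ackr1 in 5.24%. Prox1 and Lyve1, which mark lymphatic endothelium, were each found in 3.66%, and Prox1 in 13.3% of tumor barcodes. Mki67 and Top2a, genes of dividing cells, were found in 25.7 and 26.2% of endothelial and in 49.5 and 51.8% of tumor barcodes.

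Clustering split the 249 barcodes into 9 groups, whose leading genes are a description. Cluster 5, with 28 barcodes, was venous-like: Selp, Ackr1 and Lrg1 led it, and 7 of 9 venous markers stood above the other barcodes. It held 97.1% of all Selp UMIs and 94.7% of all Ackr1 UMIs. Cluster 8, with 29 barcodes, held dividing cells, with Mki67 in 89.7% of them against 33.2% of the rest. In it, 7 markers of dividing cells stood above the rest, and only Mki67 was among its 10 leading genes. Cluster 6 (25 barcodes) was led by Pou4f2, Cxcl9, Igfbp3, Fn1 and Cxcr4, and all 10 tip cell markers used to name clusters stood above the rest. Of those 10 only Cxcr4 was among its 10 leading genes, and the cluster was given no name. Igfbp3 and Trp53i11, also among them, belong to the longer list of 19 tip cell genes used for the treatment comparison. Cluster 7 (24 barcodes) was led by Hspa1a, Cited2, Hspa1b, Pgf, Jun and Vegfa. Hspa1a and Hspa1b are heat shock genes, Jun is an early response gene and Vegfa a hypoxia target, and both heat shock genes were found in 33.3% of its barcodes. Adm, the vasoactive peptide adrenomedullin, was found in 83.3% of cluster 7 and 32.0% of the rest. Clusters 2, 3 and 4 (42, 31 and 30 barcodes) kept no name, with Fasn, Dok4 and Pcdhga9 in front.

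Clusters 1 and 9 went against a purely endothelial label. In cluster 1, 17 barcodes were led by Col1a1, Col1a2 and Col3a1, collagens of fibroblasts, together with Pdgfrb of mural cells. All 17 had at least 3 fibroblast markers, yet a median of 19 of the 27 pan-endothelial genes. Their median of 15796 UMIs was the highest of the 9 clusters. Cluster 9 (23 barcodes) was led by Col2a1, Col9a3, Col11a2 and Acan, cartilage matrix genes, with Ncan and Nkx2-2 of the glial lineage, and a median of 14 pan-endothelial genes. The 7 tumor markers used to describe clusters all stood above the other barcodes in it. Ptprz1, one of them, was found in 91.3% of its barcodes and 31.0% of the rest. Whether the barcodes of clusters 1 and 9 were 2 cells in 1 droplet was not tested.

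By sample, the clusters were uneven. Cluster 5 held 4, 0 and 5 barcodes of the vehicle samples and 4 and 15 of the Xevinapant samples. Cluster 7 held 1, 3 and 0 of vehicle against 7 and 13 of Xevinapant, and cluster 6 held 2, 4 and 1 against 3 and 15. Xevinapant 3 and 4 therefore gave most barcodes of clusters 5, 6 and 7. Cluster 1 held 4, 3 and 3 of vehicle against 5 and 2 of Xevinapant. The counts are given without a test, since genes that define the clusters also differed between samples.

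**Figure D4:**
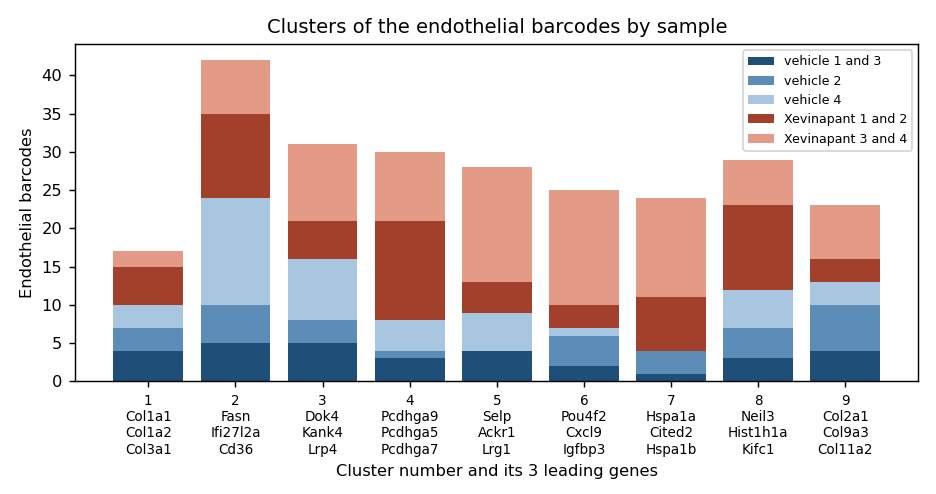
Number of endothelial barcodes in each of the 9 clusters, stacked by sample (3 vehicle samples in blue, 2 Xevinapant samples in red), with the 3 leading genes of each cluster. Vehicle gave 4 and Xevinapant 20 of the 24 barcodes of cluster 7.

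The treatment comparison asked which genes of the endothelial barcodes differed between Xevinapant and vehicle. None passed: edgeR's quasi-likelihood test on the sums of the 5 samples called 0 of 6577 genes (0%) at an adjusted p under 0.05, with 0.0886 as the smallest. At an unadjusted p under 0.05 stood 262 genes higher with Xevinapant (3.98%) and 276 lower (4.2%). Sample values of the groups did not overlap for 788 genes higher with Xevinapant and 765 lower, out of the 6577. DESeq2 called 5 genes, Jun and Ier3 higher and Spon1, Id4 and Apcdd1 lower. Values below are those of the 5 genes with the smallest p in each direction and of the fixed lists, and no list change is claimed.

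The 5 genes with the smallest p among those higher with Xevinapant were Ier3, Jun, Ackr1, Fos and Hspa1b, and none passed. Ier3, an early response gene, stood at 51.1, 50.7 and 100.3 normalized CPM in vehicle and 233 and 277 in Xevinapant, a log2 difference of 1.93 ± 0.30 (SE; edgeR adjusted p = 0.110). Jun stood at 170, 95.8 and 132 against 429 and 360 normalized CPM (1.55 ± 0.27, edgeR adjusted p = 0.152). For Fos, the values were 42.6, 16.9 and 47.5 against 163 and 123 normalized CPM. The groups did not overlap for any of the 3 genes, which are among 788 higher genes without overlap out of all 6577 tested. In tumor barcodes, Fos was higher as well, at 67.4 normalized CPM in vehicle and 265 in Xevinapant, and the endothelial treatment difference minus that of tumor barcodes was -0.00 ± 0.41 on the log2 scale (edgeR adjusted p = 1). That difference was 0.97 ± 0.41 for Ier3 (edgeR adjusted p = 0.791), 0.88 ± 0.33 for Jun (edgeR adjusted p = 0.596) and 2.36 ± 0.71 for Hspa1b (edgeR adjusted p = 0.190), none past the threshold. Hspa1b, a heat shock protein, stood at 0, 11.3 and 10.6 against 132 and 59.6 normalized CPM, and 48.4% of its 95 UMIs were in cluster 7 and 34.7% in 1 barcode of Xevinapant 1 and 2. Of 14 heat shock genes tested, 3 were higher and 2 lower at an unadjusted p under 0.05 (all genes: 3.98 and 4.2%). Their median log2 difference was -0.02 and ran from -0.59 to 0.38 over 18 alternatives, with the sign kept in 7. Hspa8 and Hsp90ab1, the 2 most abundant, overlapped between the groups (0.13 and -0.18). Hspa5, next in abundance, stood at 516, 366 and 433 against 295 and 259.7 normalized CPM. Of 27 immediate early genes tested, 9 were higher and 0 lower at an unadjusted p under 0.05 (all genes: 3.98 and 4.2%), with a median log2 difference of 0.58 against -0.00 over all genes. Its 3 most abundant genes, Ccn2, Rhob and Ccn1, overlapped between the groups (log2 differences of 0.29, 0.21 and 0.28). That list also serves as a list of dissociation response. Its summed level in tumor barcodes was 2249 normalized CPM in vehicle and 3311 in Xevinapant, and its part in the difference was not tested.

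Ackr1, a chemokine receptor of venules, stood at 4.26, 0 and 37.0 normalized CPM in vehicle and 176 and 119 in Xevinapant (log2 difference 3.42 ± 0.61, edgeR adjusted p = 0.152). These were 150 UMIs in 15 barcodes, and 1 barcode of Xevinapant 1 and 2 held 42.7% of them. Selp and Icam1, chosen after their values were seen, also did not overlap. Over all 6577 genes tested, 788 were higher with Xevinapant without overlap. Selp stood at 63.9, 0 and 15.8 against 96.7 and 341 normalized CPM, and Icam1 at 63.9, 11.3 and 73.9 against 134 and 137. Of 11 venous genes tested, 4 were higher and 1 lower at an unadjusted p under 0.05 (all genes: 3.98 and 4.2%). Their median log2 difference was 0.15, and -0.04 with at least 4 of the 5 transcripts. Tmsb10, Vwf and Ephb4, the 3 most abundant, overlapped between the groups (-0.02, -0.12 and 0.15). Of 13 genes of leukocyte adhesion tested, 3 were higher and 0 lower at an unadjusted p under 0.05 (all genes: 3.98 and 4.2%), with a median log2 difference of 0.41. Without Xevinapant 3 and 4, that median was -0.01. Of its 3 most abundant genes, Cd34 and Ackr3 overlapped between the groups (log2 differences of -0.10 and 0.05), and Icam2 stood at 375, 479 and 343 against 525 and 519 normalized CPM (0.39 ± 0.25, edgeR adjusted p = 0.725).

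**Figure D5:**
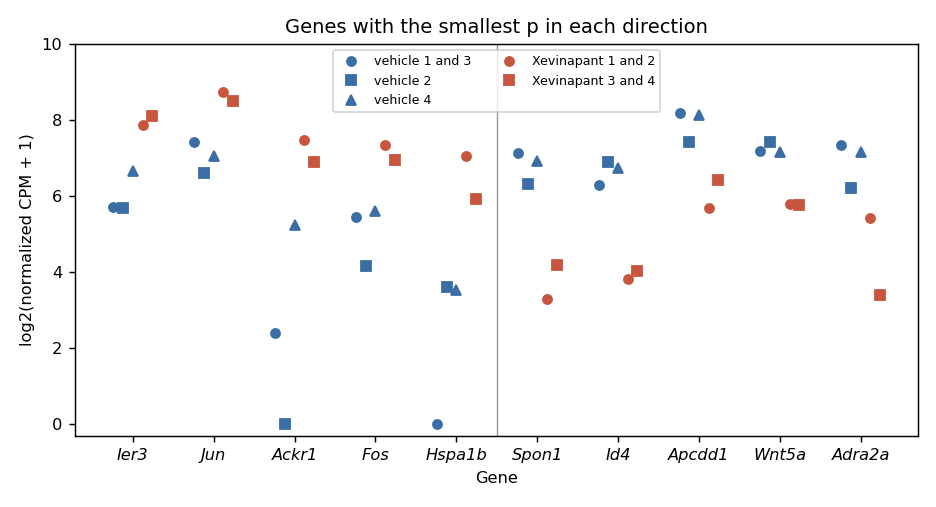
log2(normalized CPM + 1) per sample for the 5 genes with the smallest p in each direction (higher with Xevinapant to the left of the line, lower to the right), vehicle in blue and Xevinapant in red. The groups do not overlap for any of the 10 genes, which were chosen by their small p, and none passed the edgeR threshold. Of all 6577 genes tested, 788 were higher and 765 lower with Xevinapant without overlap.

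The 5 genes with the smallest p among those lower with Xevinapant had most of their UMIs in clusters 1 and 9. The share of all endothelial UMIs in these clusters is not given here. Cluster 1 held the deepest barcodes (median 15796 UMIs), and the clusters came from the same counts. Spon1, an extracellular matrix protein, stood at 141, 78.9 and 121 normalized CPM in vehicle and 8.79 and 17.3 in Xevinapant (-3.08 ± 0.43 on the log2 scale, edgeR adjusted p = 0.0886). Of its 83 UMIs, 71.1% were in cluster 1 and 22.9% in cluster 9. Id4, an inhibitor of helix-loop-helix factors, stood at 76.7, 118 and 106 against 13.2 and 15.4 normalized CPM (-2.75 ± 0.40, edgeR adjusted p = 0.0886), with 42.5% of its UMIs in cluster 1 and 39.7% in cluster 9. Apcdd1, a Wnt inhibitor and Wnt target, stood at 290, 169 and 280 against 50.6 and 84.7 normalized CPM, with 78.9% of its UMIs in cluster 1. Wnt5a, a Wnt ligand, stood at 145, 169 and 143 against 55.0 and 53.9 normalized CPM, with 91.7% in cluster 1. For Adra2a, an adrenergic receptor, 96.1% of the UMIs were in cluster 1. Vehicle and Xevinapant did not overlap for these 5 genes, which are among 765 lower genes without overlap out of all 6577 tested. With barcodes of 3 or more fibroblast markers left out, edgeR called 3 genes, Col8a1, Ier3 and Cd74. Of 13 mesenchymal genes tested, 0 were higher and 5 lower at an unadjusted p under 0.05 (all genes, here and below: 3.98 and 4.2%). Their median log2 difference was -0.73, and 0.67 with Olig1 and Olig2 UMIs barred altogether. Of 7 fibroblast genes, 0 were higher and 3 lower (-1.39), and of 13 tumor genes 0 and 6 (-0.85). Of 14 pericyte and mural genes, 0 were higher and 3 lower (-0.59). These lists hold markers of other cells, and the part of those cells in the differences was not tested.

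Barrier and vessel growth lists showed no common direction. Their counts stand beside 3.98% of genes higher and 4.2% lower over all genes. Of 10 Wnt and Norrin genes tested, 1 was higher and 3 lower at an unadjusted p under 0.05, the higher one being Sox17 at 179, 169 and 222 against 404 and 398 normalized CPM (edgeR adjusted p = 0.338). Fzd4, the most abundant, overlapped between the groups (log2 difference 0.26), and Lrp5 did not (0.30). Of 10 barrier transporters, 1 was higher and 2 lower. Slc2a1 stood at 243, 321 and 201 against 334 and 577 normalized CPM (edgeR adjusted p = 0.553). Insr and Bsg, also abundant, overlapped between the groups (log2 differences of 0.19 and -0.59). Of 11 junction genes, 0 were higher and 1 lower, and Esam ranged from 1211 to 1520 normalized CPM over the 5 samples. Of 19 tip cell genes, 1 was higher and 0 lower (median log2 difference 0.11, and -0.11 without barcodes of mixed markers). Kdr stood at 1232, 1105 and 876 against 805 and 743 normalized CPM (-0.47 ± 0.27, edgeR adjusted p = 0.676). Among 11 fenestration and leak genes, 1 was higher and 0 lower. Cav1 did not overlap, at 1543, 2187 and 1088 against 1018 and 1000.5 normalized CPM (-0.67 ± 0.33, edgeR adjusted p = 0.634). Plvap overlapped between the groups, at 1603, 1015 and 897 against 1312 and 1162 normalized CPM. Of 14 arterial genes, 1 was higher and 0 lower. Of these, 13 had a log2 difference above 0, with a median of 0.47 over the 14. The 19 arterial genes measured summed to 3678, 3162 and 3463 normalized CPM in vehicle. They summed to 7129 in Xevinapant 1 and 2 and to 3498 in Xevinapant 3 and 4. Mgp, a leading gene of cluster 1, stood at 324, 84.6 and 581 against 1789 and 144 normalized CPM. Of 291 Gja4 UMIs, 84.2% were in cluster 1 and 58.4% in 1 barcode of Xevinapant 1 and 2. For Efnb2 these shares were 31.2 and 22.2%, and Sox17 had 10.1% in cluster 1. The part of cluster 1 in the arterial median was not tested. Of 6 capillary genes, 0 were higher and 1 lower. Of 11 genes of VEGF and angiopoietin signals, 1 was higher and 0 lower. Plxnd1 and Angpt2, abundant members beside Kdr, overlapped between the groups (log2 differences of 0.02 and -0.13). Of 17 genes of TGF-beta, BMP and shear stress, 0 were higher and 1 lower. Of 15 angiocrine and growth factors, 2 were higher and 2 lower. Of 40 genes of basement membrane and matrix, 1 was higher and 3 lower.

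Lists of hypoxia, p53, Notch and cell cycle genes are given by their counts, beside the 3.98% higher and 4.2% lower over all genes. Of 33 hypoxia and glycolysis genes, 5 were higher and 1 lower at an unadjusted p under 0.05, with a median log2 difference of 0.13 that was -0.01 without Xevinapant 3 and 4. Its 3 most abundant genes, Anxa2, Pkm and Epas1, overlapped between the groups, with log2 differences of -0.27, 0.12 and 0.09. Ndrg1, a hypoxia target chosen after its values were seen, stood at 46.9, 197 and 58.1 against 281 and 400.2 normalized CPM. Of 15 p53 and apoptosis genes, 4 were higher and 0 lower, with a median log2 difference of 0.13 that was -0.09 without vehicle 4. Cdkn1a, the cell cycle inhibitor p21, stood at 205, 203 and 148 against 306 and 448 normalized CPM (1.02 ± 0.26 on the log2 scale, edgeR adjusted p = 0.363). Plk2, a p53 target, stood at 375, 304 and 338 against 543 and 673 normalized CPM. Mcl1 and Bax, the next most abundant, overlapped (-0.05 and 0.13). Of 12 Notch genes, 3 were higher and 0 lower, and Dll4 stood at 759, 1082 and 765 against 1115 and 1179 normalized CPM (0.40 ± 0.27, edgeR adjusted p = 0.744). Nrarp and Notch1, the other abundant members, overlapped (-0.12 and 0.25). Of 38 cell cycle genes, 2 were higher and 0 lower, with a median log2 difference of -0.26. One of the 2 was Cdkn1a, which is on this list too. Ccnd1, its most abundant member, stood at 550, 395 and 538 against 376 and 285 normalized CPM without overlap (-0.58 ± 0.27, edgeR adjusted p = 0.607). Mki67 overlapped, at 234, 350 and 201 against 242 and 242 normalized CPM.

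Genes of the compound's targets and the pathways around them did not pass the test. Birc3, which encodes cIAP2, stood at 21.3, 50.7 and 47.5 against 33.0 and 32.7 normalized CPM (edgeR adjusted p = 0.932). Xiap stood at 68.2, 45.1 and 37.0 against 28.6 and 25.0 normalized CPM (edgeR adjusted p = 0.633). Birc2, which encodes cIAP1, had 29 UMIs in the 249 barcodes and was not tested. Of 24 genes of the IAP and TNF receptor machinery, 0 were higher and 1 lower at an unadjusted p under 0.05 (all genes, here and below: 3.98 and 4.2%). The lower one was the death receptor Tnfrsf21, at 286, 175 and 148 against 108 and 119 normalized CPM. Tnfrsf1a and Ltbr, the most abundant members, overlapped between the groups (log2 differences of -0.04 and 0.04). Of 12 NF-kB genes, 0 were higher and 0 lower. Of 36 interferon response genes, 1 was higher and 6 lower, with a median log2 difference of -0.23. With Olig1 and Olig2 UMIs barred altogether, that median was 0.39. Of 14 genes of MHC presentation, 2 were higher and 1 lower.

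A last comparison asked for genes whose treatment difference differed between endothelial and tumor barcodes of the same samples. edgeR's interaction test, with the sample as a block, called 41 of 14029 genes. The treatment difference of endothelial barcodes stood above that of tumor barcodes in 2 (0.0143%), called higher here, and below it in 39 (0.278%), called lower. Lower genes need not be lower with Xevinapant in endothelial barcodes, and for many the endothelial sample values overlapped. Mylk, called lower, had means of 332 normalized CPM in vehicle and 346 in Xevinapant, and 1.73 and 4.00 in tumor barcodes. Of the 14029, 6577 had also passed the low-count filter on endothelial barcodes alone. Called genes that had not passed it were Hp, Car3, F3, Matn2, Scd1, Gpd1 and C3, all lower. The test takes 1 spread per gene from endothelial and tumor sums together. Its p-values therefore do not measure the spread between endothelial samples alone. Hp was called at 4.26, 0 and 1072 normalized CPM in the vehicle endothelial samples and 0 and 1.92 in Xevinapant. Ramp3, a partner of the receptors for calcitonin-related peptides and adrenomedullin, was one of the higher 2. It stood at 29.8, 95.8 and 21.1 normalized CPM in the vehicle endothelial samples and 127 and 352 in Xevinapant, against 1.56 and 1.42 in tumor barcodes. Its difference of differences was 2.39 ± 0.48 on the log2 scale (edgeR adjusted p = 0.0039). It was found in 65 endothelial barcodes, with 9.29% of its UMIs in the barcode that held most of them. Mecom, a zinc finger transcription factor of arterial endothelium, stood at 166, 175 and 111 against 246 and 289 normalized CPM and at 5.88 against 3.16 in tumor barcodes. Its difference of differences was 1.56 ± 0.38 (edgeR adjusted p = 0.0448), and its difference in the endothelial fit alone was 0.83. Leaving out a Xevinapant sample leaves 1 in that group, which is then assumed to vary like the vehicle samples. Without Xevinapant 3 and 4, neither passed: Ramp3 had a difference of 1.68 (edgeR adjusted p = 1) and Mecom 1.67 (edgeR adjusted p = 0.253). Mecom also lost its call without vehicle 4, at 0.98, and without Xevinapant 1 and 2, at 1.47. Both lost it with each matrix as 1 mouse, at differences of 2.48 and 1.45, and with Olig1 and Olig2 UMIs barred altogether, at 2.45 and 1.32, so their sizes stayed near those above. Next in order of p came Mest, Yes1 and Pgm2l1, which did not pass (edgeR adjusted p of 0.0772 to 0.078).

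Among the 39 lower genes were many transcripts of cluster 1. In 19 of the 41 called genes, over 50% of the UMIs came from the 17 barcodes of cluster 1. No such count over all genes is given here, and these barcodes were the deepest of the clusters (median 15796 UMIs). Col5a2, a fibrillar collagen, stood at 337, 186 and 824 normalized CPM in the vehicle endothelial samples and 138 and 144 in Xevinapant, with 96.1% of its UMIs in cluster 1. Its difference from tumor barcodes was -2.07 ± 0.33 (edgeR adjusted p = 4.67e-05), and 0.06 with the fibroblast-marker barcodes left out. Spon1, Id4 and Apcdd1 were called too, at -2.98, -2.77 and -1.94. All 3 kept their direction under the 11 alternatives run, and the calls held in 7, 8 and 6 of them. Without fibroblast-marker barcodes, or with Olig1 and Olig2 UMIs barred altogether, none of the 3 passed. Their differences were then -2.79, -1.91 and -1.998 in the first setting and -2.97, -2.04 and -1.82 in the second. With each matrix as 1 mouse, Spon1 (-2.82, edgeR adjusted p = 0.0843) and Apcdd1 (-1.98, edgeR adjusted p = 0.0521) did not pass at nearly the same size. With 1 sample left out, Spon1 did not pass without Xevinapant 1 and 2 (-2.14) and Id4 not without Xevinapant 3 and 4 (-2.59), each with 1 Xevinapant sample left. Apcdd1 did not pass without vehicle 1 and 3 (-1.63) or without Xevinapant 3 and 4 (-1.49). Ncan, a proteoglycan of glial cells, and Apoe, the main lipid carrier of the brain, had 65.7 and 42.7% of their UMIs in cluster 9. Car3, Hp and Scd1, chosen after their values were seen and typical of fat cells, were seen mainly in vehicle 4, at 723, 1072 and 755 normalized CPM, where 1 barcode held 40.6 to 56.9% of their UMIs.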

How the data were processed

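The authors deposited UMI counts for 19059 genes in 4 matrices per group, with each group's fixed cells run as 1 pool of probe barcodes. Per the labels, reads were mapped to mm10 with Cell Ranger, and the file headers name version 7.1.0, another version than the labels. The quality filter used the study's stated limits, which the deposited matrices had not been cut to, and its doublet calls were not used here. Barcodes were kept with 200 or more genes, mitochondrial UMIs up to 10% and a ratio of log10 genes to log10 UMIs of 0.8 or more. No doublet caller was run.

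Counts of the endothelial barcodes were summed per joined sample and tested with edgeR 4.0.16 (quasi-likelihood test, TMM, its low-count filter, Benjamini-Hochberg adjustment), under R 4.3.3. Shares and tumor gene levels were compared by exact permutation tests. Clusters used scanpy 1.11.5 with 1500 genes, 12 components, 12 neighbours and a resolution of 0.8. Tests were tried on simulated data. Lists followed textbook markers, and members, lists and rules were chosen with earlier results of these data known. Named were the 10 largest changes per direction among called genes without overlap and with a mean log2 CPM from 5 upward, leaving out markers of other cells (the 5 genes of smallest p where fewer than 5 passed), the 3 most abundant genes of a list, and the 20 leading genes. Alternatives are given at the end. Depth per matrix was 71835789 to 300206053 UMIs. Intervals cover counting error only.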

Additional observations from a re-analysis of the deposited data

Results flagged for a closer look

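In 12 of the genes described, the treatment difference differed between endothelial and tumor barcodes by the interaction test, which is why they are listed. Values are endothelial minus tumor barcodes on the log2 scale. The 2 higher ones were Ramp3 (2.39) and Mecom (1.56). Lower were Spon1 (-2.98), Id4 (-2.77), Matn2 (-2.59), Has2 (-2.32), Col5a2 (-2.07), Lrig1 (-2.01), Apcdd1 (-1.94), Apoe (-1.84), Ncan (-1.80) and Prrx1 (-1.61). With no Olig1 or Olig2 UMI, Matn2 (0.74), Has2 (1.26), Lrig1 (0.21) and Ncan (0.29) turned positive, and Apoe and Prrx1 stood at -0.20 and -0.42. Of the 11 alternatives run, the call held in 4 for Prrx1, in 5 each for Matn2, Has2 and Ncan, in 6 for Apoe and in 7 each for Col5a2 and Lrig1. Matn2 rested on 38 UMIs in 15 endothelial barcodes and Has2 on 44 in 22. Matn2 was too low for the treatment comparison and entered this one through its level in tumor barcodes. With 3 and 2 samples per group, no outlier test of single samples was run. By its values vehicle 4 stood apart in fibroblast genes (44079 CPM), erythrocyte genes (4863 CPM) and Car3, Hp and Scd1.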

How the results depend on the processing

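The main limits are 5 samples, shallow sums that a few barcodes dominate, and a treatment that cannot be told apart from the batch. Genes called between groups numbered 5 with DESeq2, 177 with no filter on low counts, 1 with at least 4 of 5 transcripts, 1 without barcodes of mixed markers, 3 without fibroblast-marker barcodes (chosen after seeing the data) and 0 to 13 with 1 sample left out, 13 of them without Xevinapant 1 and 2 and 3 without Xevinapant 3 and 4, where the 1 Xevinapant sample left is assumed to vary like the vehicle samples. 0 were called by edgeR with library size without TMM, each matrix as 1 mouse, no Olig1 or Olig2 UMI, at least 1000 UMIs, the deepest barcodes left out, equal totals and, chosen after seeing the data, shared barcodes left out or each barcode thinned to 2000 UMIs. Genes differing from tumor barcodes numbered 83 with no filter, 8 with each matrix as 1 mouse, 4 with no Olig1 or Olig2 UMI, 46 without fibroblast-marker barcodes, 38 without shared barcodes (chosen after seeing the data) and 28 to 54 with 1 sample left out. Of the named ones, Matn2 (0.74), Has2 (1.26), Lrig1 (0.21) and Ncan (0.29) reversed with no Olig1 or Olig2 UMI, and Col5a2 (0.060) without fibroblast-marker barcodes. The cause was not tested. The endothelial share stayed higher with Xevinapant under every alternative run, by 0.178 to 0.348 percentage points, and passed the threshold with each matrix as 1 mouse (0.276, exact permutation p = 0.0286). No alternative left tumor barcodes out of the total. Without 1 sample the difference was 0.202 to 0.348. The tumor gene level stayed lower, by a difference of -8.54 to -1.37. No paired analysis was possible because the labels give 1 sample per group and no mouse numbers that pair across groups.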
